A study of Homo sapiens with 6 samples.

Results

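The genes described here are 10 Krüppel-like factors (KLF2, KLF3, KLF4, KLF5, KLF6, KLF7, KLF9, KLF10, KLF11 and KLF13), taken by symbol from the 78932 gene rows of a count table. All 10 were found and all 10 passed the filter on low counts, which left 18040 genes to test. The study sequenced poly(A) RNA from HCC1937, an established triple negative line from a BRCA1-mutant ductal breast carcinoma. Its title links docetaxel, through arachidonic acid, to expression of the estrogen receptor. In 3 libraries the cells had been given 8 nM docetaxel, a taxane that stabilises microtubules, for 24 h, and 3 libraries were controls whose vehicle the labels do not give. The groups otherwise share the line and its alleles, and the labels call the libraries biological replicates without saying whether each came from its own culture. A p-value here thus reflects only how much these libraries vary.

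KLF proteins bind CACCC and GC-box sequences through C-terminal zinc fingers, and their N-terminal parts decide whether they activate or repress. KLF2, KLF4, KLF5, KLF6 and KLF7 are mainly activators, KLF3 recruits the CtBP corepressor, and KLF9, KLF10, KLF11 and KLF13 recruit the SIN3 corepressor. In epithelia KLF5 is known for promoting proliferation and KLF4 for restraining the cell cycle and driving differentiation.

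Docetaxel libraries had more KLF4 mRNA (1.18-fold) and less KLF5 (1.32-fold lower), KLF3 (1.25-fold lower) and KLF10 (1.17-fold lower) than controls, by edgeR's quasi-likelihood test at an adjusted p under 0.05. The other 6 members were not called. Of the 10, 1 was called higher and 3 lower, against a background of 9.14% of tested genes called higher, 7.82% called lower and 17.0% called in either direction. The median log2 fold change was -0.01 over the 10 members and 0.01 over all tested genes. With the trend of fold change on transcript GC content and gene length taken out by offsets, KLF5 alone of the 10 was called, against 4.28% of all tested genes.

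Gene counts totalled 38622062 to 41675186 per library, a depth at which a floor of 3 counts was 0.0720 to 0.0777 CPM (counts scaled to 1e6 per library). Over all tested genes 1649 were called higher and 1410 lower, and scaling by library size alone moved this to 1096 higher and 1866 lower. Fold changes rose with GC content: when genes were divided by GC content into 5 equal bins, the median log2 value was -0.19 in the bin of lowest GC content and 0.18 in the highest. Against the epithelial description of the line, KRT8, KRT18 and KRT7 were abundant and called higher with docetaxel, while CDH1 had 164 reads over all 6 libraries, EPCAM 16, KRT19 25, KRT5 9 and KRT14 30. Whether such counts near 0, here and below, come from expression or from how the reads were counted was not tested. Summed epithelial markers were 2775 to 2908 CPM in controls and 3303 to 3419 CPM with docetaxel. With offsets log2 fold changes fell from 0.23 to 0.13 for KRT8, 0.37 to 0.18 for KRT7 and 0.15 to 0.04 for KRT18. KRT8 and KRT7 were still called with offsets and KRT18 was not (edgeR adjusted p = 0.59). Of 6 fibroblast markers 2 were tested, of 5 endothelial markers 3 and of 6 leukocyte markers 2. Among these 1 was called, the leukocyte marker CD14, which was higher and was not called with offsets (edgeR adjusted p = 0.16). Sums over all listed markers ran from 139 to 144 CPM in controls and 145 to 150 CPM with docetaxel for the fibroblast list. The endothelial sums ran from 2.03 to 3.13 CPM in controls and 2.81 to 3.60 CPM with docetaxel. The leukocyte sums ran from 1.74 to 2.62 CPM in controls and 2.83 to 4.30 CPM with docetaxel. COL1A1 carried the fibroblast sum, at 135.5 to 138.9 CPM in controls and 140.6 to 145.8 CPM with docetaxel, while COL1A2, PDGFRA, DCN and LUM had 11 to 29 reads over all libraries. PTPRC, which marks leukocytes, had 1 read in all, and the part of other cells in the results was not tested.

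Promoter sequence is shown for KLF2, KLF4 and KLF5, the activators with the largest estimated changes in either direction, to set their start regions side by side. The stretches are RefSeq sequence on GRCh38.p14, written 5′ to 3′ on the gene's own strand, and lie outside the exons of GENCODE release 29, that of KLF4 inside the gene's interval and the others before it. KLF2, at chr19:16324576-16324816 on the plus strand, has in capitals a site for MEF2, the factor through which ERK5 signalling is known to induce it. KLF4, at chr9:107489770-107490019 on the minus strand, has in capitals the cyclic AMP response element core TGACG, present as its reverse complement. KLF5, at chr13:73054726-73054975 on the plus strand, has in capitals the CACCC motif, also present as its reverse complement.
KLF2: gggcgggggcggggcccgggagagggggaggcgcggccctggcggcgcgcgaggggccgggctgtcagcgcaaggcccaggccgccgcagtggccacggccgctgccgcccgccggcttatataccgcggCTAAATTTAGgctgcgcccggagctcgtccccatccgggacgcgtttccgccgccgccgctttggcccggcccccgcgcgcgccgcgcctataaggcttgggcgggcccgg
KLF4: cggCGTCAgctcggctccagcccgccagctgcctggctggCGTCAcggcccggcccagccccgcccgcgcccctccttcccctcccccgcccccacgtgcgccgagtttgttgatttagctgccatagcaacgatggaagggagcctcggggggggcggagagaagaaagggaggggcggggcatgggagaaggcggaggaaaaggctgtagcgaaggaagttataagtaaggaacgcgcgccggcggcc
KLF5: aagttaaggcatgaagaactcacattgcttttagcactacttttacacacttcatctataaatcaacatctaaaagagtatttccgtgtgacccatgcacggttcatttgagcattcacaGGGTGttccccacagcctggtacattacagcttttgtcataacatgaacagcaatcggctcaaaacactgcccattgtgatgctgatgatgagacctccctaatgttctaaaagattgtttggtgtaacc
The KLF2 stretch is 79.3% G and C, the KLF4 stretch 69.2% and the KLF5 stretch 40.8%. The KLF2 window held 6 GC boxes (GGGCGG) and the KLF4 window 4, and this KLF5 window held 0. KLF5 has another annotated start, whose window at chr13:73058755-73059054 is 71.3% G and C and held 2 CACCC motifs, 2 GC boxes and 1 TGACG. The KLF5 stretch shown is from the start of lower coordinate, and which start these cells use was not tested.

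Start windows of 8 members were searched on both strands, 13 windows in all, each from 250 bases before to 50 bases after a RefSeq start. KLF3 and KLF10, both called lower, had no window in the search. Windows on chromosome 8, where KLF10 lies, were left out for the members but kept in the share over all genes. CACCC was in 7 of the 13 windows and in 59.9% of 35116 windows of the same length over all genes, and GGGCGG was in 8 of 13 and in 45.0%. TGACG was in 4 of 13 and in 24.6%, and the AP-1 site TGANTCA in 0 of 13 and in 7.71%. The MEF2 site was in the KLF2 window alone among the 13, at bases 120 to 111 before the start, and in 1.86% of all windows. The CArG box, bound by serum response factor, was in 1 KLF7 window and in 1.29% of all windows. In KLF13 a GC box and a CACCC motif share 1 base. These are matches of letters and not measured binding.

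KLF4 (ENSG00000136826, chr9:107484852-107490482, minus strand, GRCh38) is a zinc finger factor that activates CDKN1A and is used in reprogramming cells to pluripotency. Its level was 49.4, 49.96 and 49.3 CPM in control replicates 1 to 3 and 57.0, 56.7 and 61.3 CPM in docetaxel replicates 1 to 3. Every docetaxel library was above every control, and the controls lay close together. The means were 49.6 ± 0.36 CPM in controls and 58.3 ± 2.61 CPM in docetaxel libraries (SD, n = 3 each). On the log2 scale KLF4 rose by 0.24 ± 0.06 (SE), at an edgeR adjusted p of 0.0043. KLF4 transcripts are 55.0% G and C, in a GC bin whose median log2 fold change was 0.10 and of which 13.6% were called higher. With GC and length offsets its log2 fold change was 0.14 (edgeR adjusted p = 0.15), and without docetaxel replicate 3, the highest library, it was 0.20 without offsets (adjusted p = 0.054).

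KLF5 (ENSG00000102554, chr13:73054976-73077542, plus strand) promotes cell cycle entry and is abundant in basal breast cancer cells. Its level was 26.1, 29.5 and 27.4 CPM in the controls and 23.2, 18.8 and 20.9 CPM with docetaxel. Every docetaxel library was below every control, with docetaxel replicate 1 nearest to them. The means were 27.6 ± 1.71 and 21.0 ± 2.20 CPM (SD, n = 3 each). KLF5 fell by 0.40 ± 0.08 (SE) on the log2 scale, at an edgeR adjusted p of 0.0012. KLF5 transcripts are 47.0% G and C, in the middle GC bin, where the median log2 fold change was 0.01 and 2.86% of genes were called lower. With offsets the value was -0.38 (edgeR adjusted p = 0.0033). Tested by glmTreat against a 1.2-fold change in place of no change, none of the 10 members was called, KLF5 having an adjusted p of 0.73. Each of the 6 fits that left out 1 library called KLF5 lower, with log2 fold changes from -0.50 to -0.34. The same 6 fits with offsets, added after the data were seen, called it in 5, the exception being the fit without control replicate 2 (-0.34, adjusted p = 0.069).

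KLF2 (ENSG00000127528, chr19:16324817-16327874, plus strand), known from endothelium and lymphocytes as a factor of quiescence, was low in these cells. It was at 4.24, 4.58 and 4.32 CPM in the controls and at 6.03, 6.06 and 5.13 CPM with docetaxel. The groups did not overlap, and docetaxel replicate 3 was the docetaxel library nearest to the controls. The log2 fold change of 0.39 ± 0.16 (SE) was similar in size to that of KLF5 but did not pass the test (edgeR adjusted p = 0.085). Its 95% interval, before adjustment, ran from 1.05-fold to 1.63-fold. KLF2 transcripts are 65.2% G and C, in the GC bin where 31.6% of genes were called higher, and with offsets the log2 fold change was 0.17 (adjusted p = 0.68).

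KLF6, a tumour suppressor that also activates CDKN1A, and KLF7, known from neurons and fat cells, gave estimates near 0. KLF6 (chr10:3775996-3785281) was at 18.2 to 19.6 CPM in the controls and 17.4 to 21.7 CPM with docetaxel. KLF7 (chr2:207074137-207167267) was at 5.46 to 7.69 CPM in the controls and 4.97 to 7.62 CPM with docetaxel. The groups overlapped for both genes. The log2 fold change was 0.05 for KLF6 (95% interval -0.14 to 0.23, edgeR adjusted p = 0.80) and -0.04 for KLF7 (-0.36 to 0.28, adjusted p = 0.91). For KLF7 the interval is wide, and a change of the size seen for KLF4 lies inside it.

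**Figure D1:**
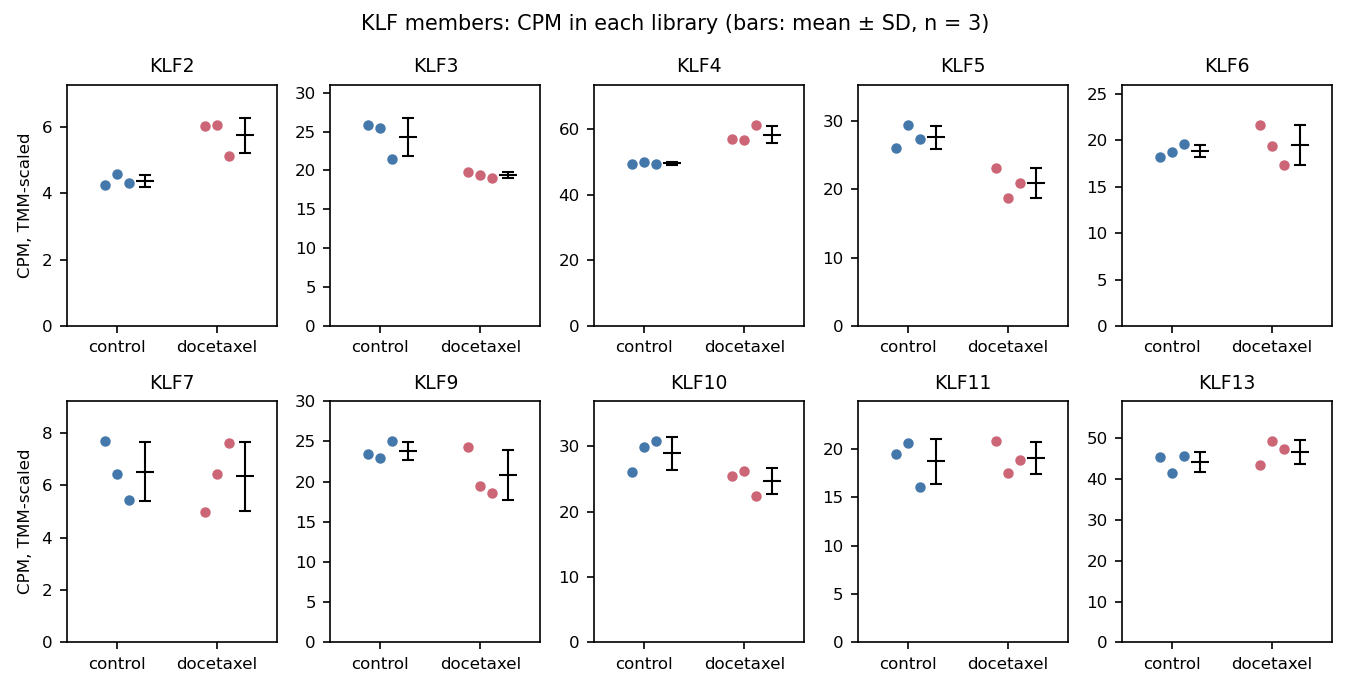
CPM of the 10 KLF genes, scaled by TMM, in each of 3 control and 3 docetaxel libraries, with each axis starting at 0 and bars for mean ± SD (n = 3). The points of the groups are apart for KLF2, KLF3, KLF4 and KLF5 and overlap for the other 6 genes.

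Among the repressors, KLF3 (ENSG00000109787, chr4:38664196-38701042, plus strand) represses through CtBP and acts in fat, B cells and red cells. It was at 25.9, 25.5 and 21.5 CPM in the controls and at 19.8, 19.5 and 19.0 CPM with docetaxel. Every docetaxel library was below every control, and the docetaxel libraries lay close together. The means were 24.3 ± 2.43 and 19.4 ± 0.40 CPM (SD, n = 3 each). KLF3 fell by 0.32 ± 0.09 (SE) on the log2 scale, at an edgeR adjusted p of 0.0080. Its transcripts are 41.5% G and C, in a GC bin where the median log2 fold change was -0.08 and 10.1% of genes were called lower. With offsets the value was -0.19 (adjusted p = 0.21). Without offsets the call was lost without control replicate 1 (adjusted p = 0.060), without control replicate 2 (0.058) and without docetaxel replicate 3 (0.051). KLF3-AS1 overlaps KLF3 on the opposite strand and had 27 to 78 reads per library beside 733 to 1084 for KLF3. The strand setting of the counting is not given in the sources used here, so reads of the pair cannot be told apart.

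KLF10 (ENSG00000155090, chr8:102648779-102655902, minus strand) and KLF11 (ENSG00000172059, chr2:10042849-10054836, plus strand) are early response genes of TGF-β that repress through SIN3. KLF10 was at 26.1, 29.9 and 30.7 CPM in the controls and at 25.5, 26.2 and 22.3 CPM with docetaxel. The groups overlapped narrowly, with control replicate 1 just below docetaxel replicate 2. KLF10 fell by 0.23 ± 0.08 (SE) on the log2 scale, with an edgeR adjusted p of 0.0498 that lay at the threshold, and with offsets the value was -0.21 (adjusted p = 0.12). The call was lost without control replicate 2 (adjusted p = 0.18), without control replicate 3 (0.23), without docetaxel replicate 3 (0.29) and with upper-quartile scaling (0.064). KLF11 was at 16.1 to 20.6 CPM in the controls and 17.5 to 20.8 CPM with docetaxel, and the groups overlapped. Its log2 fold change was 0.03 (95% interval -0.17 to 0.22, adjusted p = 0.91), so the related genes KLF10 and KLF11 had estimates of -0.23 and 0.03. The difference between these estimates was not tested.

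KLF9 (ENSG00000119138, chr9:70384597-70414624, minus strand), a target of the glucocorticoid receptor, was at 23.5, 22.9 and 25.02 CPM in the controls and at 24.4, 19.4 and 18.6 CPM with docetaxel. Docetaxel replicate 1 lay among the controls and the other docetaxel libraries below them. Its log2 estimate of -0.19 ± 0.09 (SE) was not called (edgeR adjusted p = 0.15). Without docetaxel replicate 1 it was -0.34 (adjusted p = 0.0072), and with offsets and without that library -0.29 (adjusted p = 0.034). KLF13 (ENSG00000169926, chr15:31326855-31435665, plus strand), which controls RANTES in T cells, was at 41.4 to 45.6 CPM in the controls and 43.3 to 49.2 CPM with docetaxel. The groups overlapped and the log2 fold change was 0.08 (95% interval -0.05 to 0.21, adjusted p = 0.47).

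Among KLF pseudogenes in the table the highest count in any library was 8 reads, for KLF4P1. Docetaxel and control values did not overlap for 4 of the 10 members, KLF2 and KLF4 higher and KLF3 and KLF5 lower, against 32.0% of all tested genes in either direction. By GC content KLF3, KLF6 and KLF7 lay in the next to lowest bin, KLF5, KLF9, KLF10 and KLF11 in the middle bin, KLF4 and KLF13 in the next and KLF2 in the highest. The 3 members with the highest GC content had positive estimates, and with offsets KLF13 became -0.03.

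**Figure D2:**
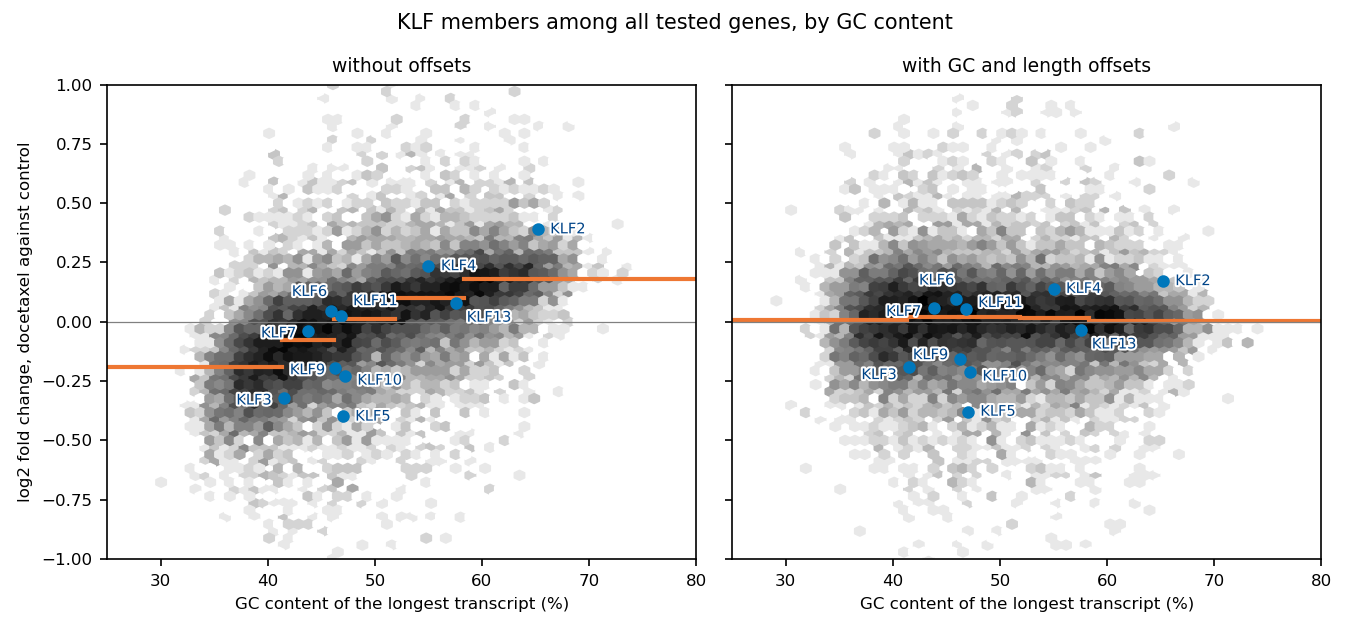
Log2 fold change (docetaxel against control) of all tested genes against GC content of the longest transcript in percent, without offsets (left) and with GC and length offsets (right). Grey cells darken with the number of genes on a log scale, orange lines are medians of the 5 GC bins, and blue points are the 10 KLF genes, of which KLF5 lies farthest below the medians in both panels.

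The 10 members were ordered by TPM, a level that divides reads by gene length. KLF16, a KLF gene outside the 10, lay above all of them, with means of 51.4 TPM in controls and 60.3 TPM with docetaxel. KLF4 was the most abundant member in both groups, at 38.3 ± 0.91 TPM in controls and 43.8 ± 2.26 TPM with docetaxel (SD, n = 3 each). KLF10 (21.4 TPM in controls) and KLF5 (21.3 TPM) followed and were not separable from each other in either group. KLF13, KLF9, KLF11 and KLF3 came next at 13.2 to 10.2 TPM in controls, each overlapping its neighbour. KLF6 at 8.69 TPM overlapped KLF3, and KLF2 at 4.39 TPM and KLF7 at 1.92 TPM stood apart below. With docetaxel KLF5 was at 15.7 TPM and its libraries overlapped those of KLF13 at 13.6 TPM, from which it was separate in controls. The 3 lowest places were held by KLF6, KLF2 and KLF7 in controls and by KLF3, KLF2 and KLF7 with docetaxel.

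The summed level of the 10 genes was 143.9 ± 4.72 TPM in controls and 137.3 ± 6.09 TPM with docetaxel, and the libraries of the groups overlapped (140.8 to 149.3 and 132.1 to 144.0 TPM). KLF4 made up 26.6 ± 0.30% of that sum in controls and 31.9 ± 1.92% with docetaxel. KLF5 made up 14.8 ± 0.66% and 11.4 ± 0.96%, and neither share overlapped between groups. The shares of KLF2 (3.05% in controls, 4.08% with docetaxel) and KLF3 (7.05% and 5.75%) did not overlap either. The ratio of KLF4 to KLF5 was 1.90, 1.70 and 1.81 in the controls and 2.47, 3.03 and 2.94 with docetaxel, the lowest docetaxel library being above the highest control. The pair was chosen after its values were seen and carries no test. KLF4 was higher and KLF5 lower in every docetaxel library than in any control, so their ratio had to separate. TPM is not corrected for GC content, and with offsets KLF4 was not called (edgeR adjusted p = 0.15). In bulk RNA fewer cells with a transcript and less of it per cell cannot be told apart.

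**Figure D3:**
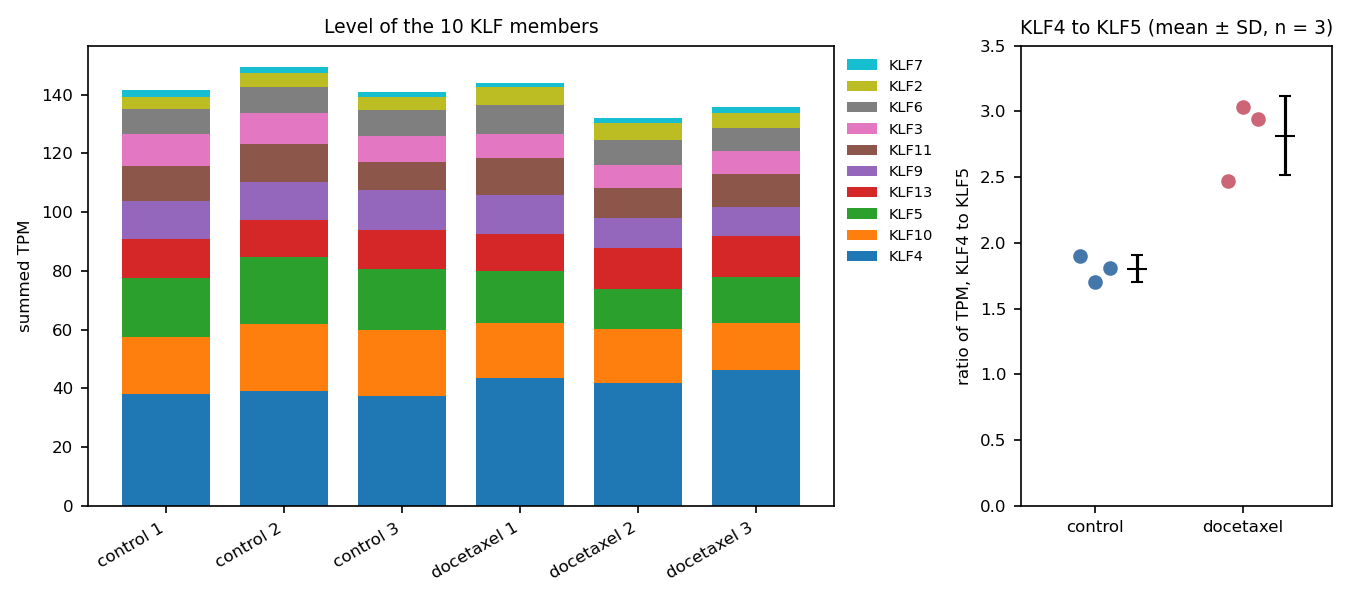
Left, TPM of the 10 KLF genes stacked by library, which sum to between 132.1 and 149.3 TPM; right, ratio of KLF4 to KLF5 TPM in each library with mean ± SD (n = 3). The ratio is 1.70 to 1.90 in controls and 2.47 to 3.03 with docetaxel, without GC and length offsets.

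Of the 8 other KLF genes, 5 had enough reads to test and 1, KLF16, was called, against 17.0% of all tested genes. KLF16, a SIN3-binding repressor, was at 54.3, 50.8 and 56.6 CPM in controls and 64.8, 67.0 and 63.4 CPM with docetaxel. Every docetaxel library was higher, and KLF16 rose by 0.27 ± 0.06 (SE) on the log2 scale, at an edgeR adjusted p of 0.0011. KLF16 transcripts are 67.8% G and C, and with offsets the value was 0.03 (adjusted p = 0.88). KLF12 (-0.07), KLF14 (0.32), KLF15 (-0.18) and KLF17 (-0.19) were not called. KLF1, KLF8 and KLF18 had 29, 14 and 7 reads over all libraries. The sum over all 18 KLF genes was 211.8 ± 1.67 TPM in controls and 213.3 ± 6.36 TPM with docetaxel.

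The SP factors bind the same GC boxes. Of 9, 7 were tested, and SP3 was called lower, from 40.8 ± 3.91 CPM to 31.8 ± 2.13 CPM (SD, n = 3 each; log2 fold change -0.36 ± 0.07 SE, edgeR adjusted p = 8.23e-04). SP3 transcripts are 39.1% G and C, and with offsets the value was -0.14 (adjusted p = 0.25). SP1, the general GC-box activator, was at 90.1 and 87.0 CPM and had a log2 fold change of -0.05. SP2 (0.19), SP4 (-0.31), SP6 (0.52), SP8 (0.32) and SP9 (-0.14) were not called. The 1 call among 7 tested SP factors stands beside 17.0% of all tested genes called in either direction. SP5 had 0 reads and SP7 23 in all.

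**Figure D4:**
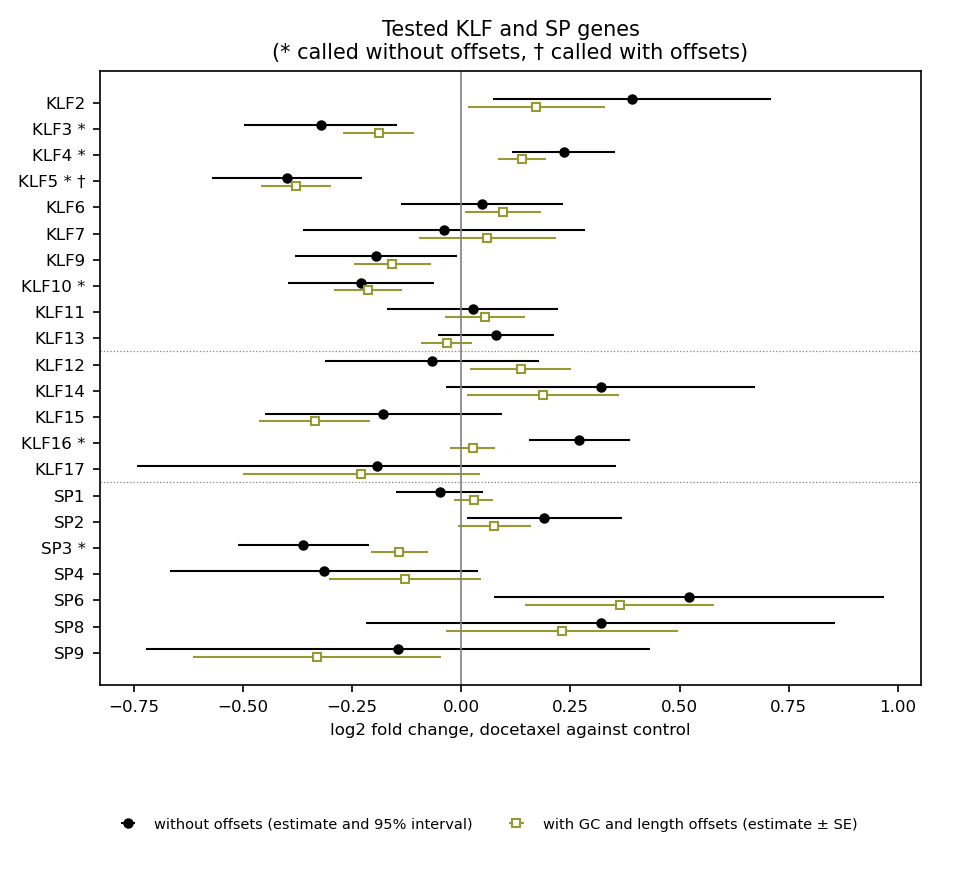
Log2 fold change (docetaxel against control) of the tested KLF and SP genes, with 95% intervals without offsets (black) and ± SE with GC and length offsets (open squares). Asterisks mark the 6 genes called without offsets, KLF3, KLF4, KLF5, KLF10, KLF16 and SP3, and the dagger marks KLF5, the gene called with them.

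Genes that act on or with KLF proteins were taken from lists drawn up with earlier results of these data known. The shares called over all tested genes, 9.14% higher and 7.82% lower, stand beside the counts of each list that follows. Of 11 corepressors and coactivators, EP300, an acetyltransferase that modifies KLF proteins, was called lower and none higher. It fell by 0.22 ± 0.08 (SE) on the log2 scale (edgeR adjusted p = 0.044), and with offsets was at -0.24 (adjusted p = 0.048). The call held in 8 of 17 alternatives and was lost without control replicate 1 (adjusted p = 0.10), control replicate 3 (0.25), docetaxel replicate 2 (0.16) or docetaxel replicate 3 (0.082), with upper-quartile scaling (0.058) and with no filter on low counts (0.051). HDAC2 (-0.11), SIN3B (0.13) and SAP30 (0.11), parts of the SIN3 complex, were not called. HDAC2 was called lower in 3 of 17 alternatives, but with offsets it turned to 0.12 (edgeR adjusted p = 0.063). SIN3B turned to -0.02 with offsets and SAP30 was at 0.08. The median of the list was 0.00, against 0.01 for all genes.

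Of 7 genes of the ERK5 and MEF2 pathway that induces KLF2 and KLF4, 6 were tested and MAPK7, which encodes ERK5, was called higher. MAPK7 was at 29.7 ± 1.42 CPM in controls and 36.6 ± 1.07 CPM in docetaxel libraries (SD, n = 3 each). That is a rise of 0.30 in log2 units (edgeR adjusted p = 0.0027), and 0.17 with offsets (adjusted p = 0.15). MAP3K2 (-0.25), an upstream kinase, and the factors MEF2A (-0.23) and MEF2D (0.19) were not called, and the median of the list was 0.07.

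Enzymes that add ubiquitin to KLF proteins or remove it gave 3 lower and 1 higher call among 9, all tested. Over all tested genes 7.82% were called lower and 9.14% higher. SIAH1, a ligase for KLF10, fell from 15.5 ± 0.82 to 10.8 ± 1.84 CPM (SD, n = 3 each; log2 fold change -0.51, edgeR adjusted p = 0.0015). The KLF5 ligases FBXW7 (-0.41, adjusted p = 0.047) and WWP1 (-0.24, adjusted p = 0.028) also fell, and the deubiquitinase BAP1 rose (0.17, adjusted p = 0.0086). FBXW7 held its call in 6 of 17 alternatives: it was at -0.27 without control replicate 2 (adjusted p = 0.34) and was also not called without control replicate 3 (0.079), docetaxel replicate 2 (0.086) or docetaxel replicate 3 (0.20), with upper-quartile scaling (0.054), by limma-voom (0.059) or with no filter (0.052). WWP1 was not called without control replicate 1 (0.10), control replicate 2 (0.13), docetaxel replicate 2 (0.13) or docetaxel replicate 3 (0.18), and BAP1 without docetaxel replicate 3 (0.072). With offsets none of the 9 was called; SIAH1 was at -0.31 (adjusted p = 0.079), FBXW7 at -0.34, WWP1 at -0.05 and BAP1 at 0.01. SIAH1 (37.7% G and C) and WWP1 (38.8%) lie in the lowest GC bin, where 28.8% of genes were called lower without offsets. FBXW7 (45.9%) lies in the next bin, with 10.1% called lower, and BAP1 (60.4%) in the highest, with 31.6% called higher. The median of the list was -0.17 without offsets and -0.05 with them.

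Of 10 TGF-β and SMAD genes, all tested, 3 were called lower, against 7.82% of all tested genes. The receptor TGFBR1 fell by 0.24 on the log2 scale (edgeR adjusted p = 2.01e-04), the SMAD inhibitor SKIL by 0.46 (adjusted p = 0.0010) and SMAD2 by 0.14 (adjusted p = 0.038). The call of SMAD2 was lost without control replicate 2 (0.16), control replicate 3 (0.094), docetaxel replicate 1 (0.0501) or docetaxel replicate 3 (0.13), with upper-quartile scaling (0.065) and with no filter (0.088). With offsets none of these was called: TGFBR1 was at -0.06, SKIL at -0.16, and SMAD2 turned to 0.074. The ligand gene TGFB1 was called lower with offsets (-0.22, edgeR adjusted p = 0.0041). TGFBR1 (39.0% G and C), SKIL (33.4%) and SMAD2 (40.2%) lie in the lowest GC bin, where 28.8% of genes were called lower without offsets. The median of the list was -0.13 without offsets and 0.003 with them.

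Among 7 genes for the glucocorticoid receptor and its targets, 6 were tested. DUSP1, a phosphatase of MAP kinases, rose from 44.3 ± 2.68 to 67.5 ± 0.56 CPM (SD, n = 3 each; log2 fold change 0.61, edgeR adjusted p = 1.23e-08) and with offsets was at 0.52 (adjusted p = 1.71e-08). FKBP5 (-0.23, adjusted p = 0.014) and SGK1 (-0.11, adjusted p = 0.043) fell, and with offsets were at -0.09 and 0.036. FKBP5 was not called without control replicate 2 (0.069), docetaxel replicate 2 (0.062) or docetaxel replicate 3 (0.17). SGK1 was called in 1 of the 6 fits that left out a library, the fit without docetaxel replicate 1 (0.0046). The receptor gene NR3C1 was at -0.06 and was not called. PER1 was called lower with offsets (-0.20, adjusted p = 0.035) and not without.

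Of 19 reported KLF targets, 13 were tested, 2 were called higher and 1 lower, against 9.14% and 7.82% of all tested genes. CDKN1A, the cell cycle inhibitor p21 that KLF4 and KLF6 activate, rose from 47.0 ± 1.82 to 73.6 ± 4.22 CPM (SD, n = 3 each; log2 fold change 0.65, edgeR adjusted p = 2.16e-09) and with offsets was at 0.52 (adjusted p = 2.76e-08). BIRC5, which encodes survivin, rose by 0.13 (adjusted p = 0.017) and was not called with offsets (0.07), with scaling by library size alone (0.085), with no filter (0.063), or without control replicate 1 (0.092), docetaxel replicate 1 (0.066) or docetaxel replicate 3 (0.082). CCND1, which encodes cyclin D1, was at -0.18 (adjusted p = 0.027), and at -0.21 with offsets (adjusted p = 0.035), with overlapping groups. It was at -0.12 without control replicate 2 (adjusted p = 0.22) and was not called without control replicate 3 (0.053), docetaxel replicate 2 (0.15) or docetaxel replicate 3 (0.12). PLAU was at 0.91 and was not called (adjusted p = 0.065). The median of the list was 0.06 without offsets and -0.02 with them.

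Genes with the pattern most like KLF4 and KLF5 were found by the root mean square difference in log2 CPM deviations over the 6 libraries, among 10357 genes of at least 5 CPM. Nearest to KLF4 were ADGRE5 (0.0161), MANEAL (0.0182) and ALG12 (0.0189). Nearest to KLF5 were CHORDC1 (0.0184), MOSPD2 (0.0239) and OGFRL1 (0.0266). With offsets the log2 fold changes of the KLF4 neighbours were 0.08, 0.07 and 0.13, and those of the KLF5 neighbours -0.13, -0.16 and -0.15, where KLF5 itself was at -0.38.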

How the data were processed

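The values are raw counts of reads per Ensembl gene, which the authors deposited in 1 table with gene lengths. The submitters' processing notes name featureCounts 2.0.1, MultiQC 1.11 and GRCh38. The aligner, the annotation and the strand setting were not given in the sources used here. Library names tied columns to samples, and titles gave the groups. Symbols were found for 42179 of 78932 rows, and coordinates and GC content came from GENCODE release 29 on GRCh38, with GC content for 91% of tested genes.

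In edgeR 4.0.16 (R 4.3.3) genes were kept by filterByExpr, scaled by TMM, and compared by a two-sided glmQLFTest after a robust glmQLFit. P-values were adjusted by Benjamini-Hochberg over 18040 genes, and calls are at an adjusted p under 0.05. The script was tested on simulated data. Offsets were a loess fit (span 0.5) of each library's log2 CPM deviations on GC content and gene length. TPM used the deposited lengths. Alternatives included DESeq2 1.42.0 and limma 3.58.1. Named were all members, the tested KLF and SP genes, up to 4 genes per list with the smallest p, and the 3 genes nearest to KLF4 and KLF5; TGFB1 and PER1, and the pair KLF4 and KLF5 for a ratio, were picked with their values in view. Some results for listed genes are not reported here. The members and lists were chosen with earlier results of these data known. Motifs were matched in RefSeq start windows on GRCh38.p14.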

Additional observations from a re-analysis of the deposited data

How the results depend on the processing

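GC and length offsets left 773 of 3059 calls over all genes (466 higher, 307 lower), and among the 10 members 0 higher and 1 lower (KLF5). Offsets with the replicate block gave 521 calls (314 higher, 207 lower) and again 0 and 1 members. Against a fold of 1.2, glmTreat called 37 genes (22 higher, 15 lower) and 0 members in either direction. Scaling by library size alone gave 1096 higher calls. Leaving out 1 library at a time gave 1730 to 3194 calls, 990 to 1397 higher and 740 to 1841 lower, with the fewest without control replicate 2 (1730) and docetaxel replicate 3 (1824); members called higher ranged from 0 to 1 and lower from 1 to 4. SMAD2 turned to 0.074 and SGK1 to 0.036 with offsets, and with offsets and the replicate block they were at 0.073 and 0.036; the GC trend these offsets remove is given above. The replicate block alone gave 2389 calls and ended the calls of KLF10 (-0.23, adjusted p = 0.092), EP300 (0.065), FBXW7 (0.076), SMAD2 (0.072), SGK1 (0.097), BIRC5 (0.0502) and CCND1 (0.074). The labels do not say that a number marks a shared culture, and same-numbered libraries had deviations correlated at 0.00804, 0.00704 and 0.0157, each library correlating best with its own number. Over the 17 alternatives KLF5 was called in 16, KLF4 in 13, KLF3 in 11, KLF10 in 9 and KLF9 in 1; these 5 and KLF2 had the same sign in all 17, and KLF6, KLF7, KLF11 and KLF13 did not. Depth limits the low genes: KLF2 had 167 to 232 reads per library and KLF7 191 to 303.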
